A study of Mus musculus with 9 samples.

Results

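Livers of 9 mice were compared for 9 genes listed as targets of the liver X receptors (LXRs): Abca1, Abcg1, Abcg5, Abcg8, Pltp, Lpcat3, Mylip, Smpdl3a and Ctsl. Whether LXRs control each of them in mouse liver was not tested. The members were chosen by name as LXR targets outside fatty acid synthesis, mostly of sterol export and phospholipid handling, with earlier results of these data known, and all 9 were among the 22180 genes measured with a single gene symbol. In RefSeq, Pltp lies on chromosome 2, Abca1 on 4, Lpcat3 on 6, Smpdl3a on 10, Mylip and Ctsl on 13, and Abcg1, Abcg5 and Abcg8 on 17. Each gene was read from its probe set with the highest mean over the 9 arrays. The labels give 3 groups of 3 individual mice were measured, with 1 Affymetrix whole-transcript array a liver. The double KO mice lacked SMRT and NCoR in the liver. The SMRT KO mice lacked SMRT in the liver. The control mice were SMRT and NCoR fl/fl, with both genes floxed and named as the control group. All mice were euthyroid females of a 129SV/B6 mixed background, 7 to 9 weeks old, fed standard chow. The promoter that drove the deletion and the Ncor allele of the SMRT KO mice are not given in the sources used here. No group lacked NCoR alone, so its loss can be read only on top of the loss of SMRT, and any difference in background between the lines would be part of each comparison.

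LXR alpha (Nr1h3) and LXR beta (Nr1h2) are nuclear receptors that bind oxidised sterols and pair with retinoid X receptors on DNA. Without an activating sterol, the pair is known to recruit the corepressors NCoR and SMRT, which hold target genes at a low level. In liver, LXR targets move cholesterol out of cells and into bile, remodel phospholipids and drive fatty acid synthesis. The DNA element they bind is a repeat of AGGTCA with 4 bases between the half-sites, called DR4.

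The bases before the starts of Pltp, Lpcat3 and Abcg5 are shown because these members passed the test in double KO livers. Those of Abcg8 are shown because it shares the stretch with Abcg5, and those of Abca1 because its window alone held a match in the search described next. Neither Abcg8 nor Abca1 passed. The sequences are from RefSeq promoter tables of build GRCm38.p6, in which 7 of the 9 members had an entry. They run 5′ to 3′, and for Pltp, Lpcat3 and Abca1 hold the 250 bases before the start used by the table. Abcg5 and Abcg8 lie head to head, and the bases between their neighbouring starts are given on the plus strand. Capitals mark the half-sites of a DR4 match with at most 3 mismatches in all and 2 in a half-site.
Pltp, chr2:164857709-164857958, minus strand: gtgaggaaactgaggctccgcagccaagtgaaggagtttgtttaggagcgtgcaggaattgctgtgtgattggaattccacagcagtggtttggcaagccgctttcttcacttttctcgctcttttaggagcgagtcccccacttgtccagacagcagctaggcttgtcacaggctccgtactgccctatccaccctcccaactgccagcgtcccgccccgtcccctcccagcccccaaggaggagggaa
Lpcat3, chr6:124662854-124663103, plus strand: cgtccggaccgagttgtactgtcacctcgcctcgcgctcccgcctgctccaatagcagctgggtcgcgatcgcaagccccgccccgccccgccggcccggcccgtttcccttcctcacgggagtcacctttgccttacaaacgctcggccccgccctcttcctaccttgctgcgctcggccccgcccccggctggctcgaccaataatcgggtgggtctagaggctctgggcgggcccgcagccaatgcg
Abcg5 and Abcg8, chr17:84683012-84683120, plus strand: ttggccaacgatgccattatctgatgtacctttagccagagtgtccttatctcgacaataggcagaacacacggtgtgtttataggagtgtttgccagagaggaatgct
Abca1, chr4:53159896-53160145, minus strand: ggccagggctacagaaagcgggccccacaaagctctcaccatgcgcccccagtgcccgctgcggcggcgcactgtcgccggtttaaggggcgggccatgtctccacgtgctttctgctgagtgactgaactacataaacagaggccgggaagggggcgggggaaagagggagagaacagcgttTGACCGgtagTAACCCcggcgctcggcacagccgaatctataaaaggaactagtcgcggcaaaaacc

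A search of both strands for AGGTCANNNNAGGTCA with at most 1 mismatch in each half-site found 0 matches in the windows of these 7 genes, Mylip and Ctsl included. Such a match was present in 1.48% of 32841 promoter windows of the same length, and a single AGGTCA half-site in 14.0%. With the looser allowance, chosen after the first search, Abca1 alone among them held a match, on the opposite strand to the gene. It lay 67 to 52 bases before the start used by the table. The RefSeq span of Abca1 runs to base 53159988, upstream of that start, so this match lies inside the gene span. A match of that kind was present in 15.8% of all windows. A match in letters is a description of the window, and elements outside it were not searched. The stretch between the Abcg5 and Abcg8 starts spans 109 bases, and it held 0 half-sites. A further Abcg8 start in the table lies inside Abcg5.

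The arrays correlated at 0.987 to 0.992 within groups and 0.983 to 0.989 between groups over all 41345 probe sets. All 9 members had mean levels above 5.96, the 95th percentile of the mean levels of 1394 olfactory and vomeronasal receptor genes, which served as a guide to background. Hepatocyte markers were bright, with means over 9 genes of 12.66 to 12.70 in double KO, 12.73 to 12.81 in SMRT KO and 12.78 to 12.82 in control livers (log2 values). The double KO range lay below those of both other groups, and 8 of 9 markers were below 0 in each double KO comparison. Their median log2 fold change was -0.12 against control and -0.050 against SMRT KO livers, and 0 passed. The cause of this shift was not tested. Of 5 neutrophil markers 1 had a mean above the receptor guide, as did 1 of 3 adipocyte, 3 of 6 lymphocyte, 2 of 3 pancreatic acinar and 4 of 5 cholangiocyte markers. The 4 erythroid markers of the list were not analysed here. All 7 stellate and all 7 endothelial markers lay above the guide, and 0 markers of either list passed in any comparison. The deleted genes themselves were not analysed here, so each genotype is as labelled.

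Pltp rose in double KO livers, and so did Lpcat3 and Abcg5, each by less. Pltp was 4.31-fold higher than in control livers, Abcg5 1.47-fold and Lpcat3 1.44-fold. In double KO against control livers, 3 of the 9 members rose, 0 fell and 6 did not pass the test at an adjusted p of 0.05, where 0.523% of all genes tested rose, 0.32% fell and 0.843% were called in either direction. In double KO against SMRT KO livers the same 3 members rose and 0 fell, where 0.748% of all genes rose, 0.437% fell and 1.19% were called. These comparisons share the double KO mice and are not separate evidence. In SMRT KO against control livers, 0 of 9 members passed, where 0.00451% of all genes were called. The median log2 fold change of the members was 0.24 in double KO against control livers (7 of 9 above 0) and 0.24 against SMRT KO livers (8 of 9 above 0). Over all 22180 genes these medians were 0.0036 and 0.0017. The adjusted p-values are from limma over all genes.

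**Figure D1:**
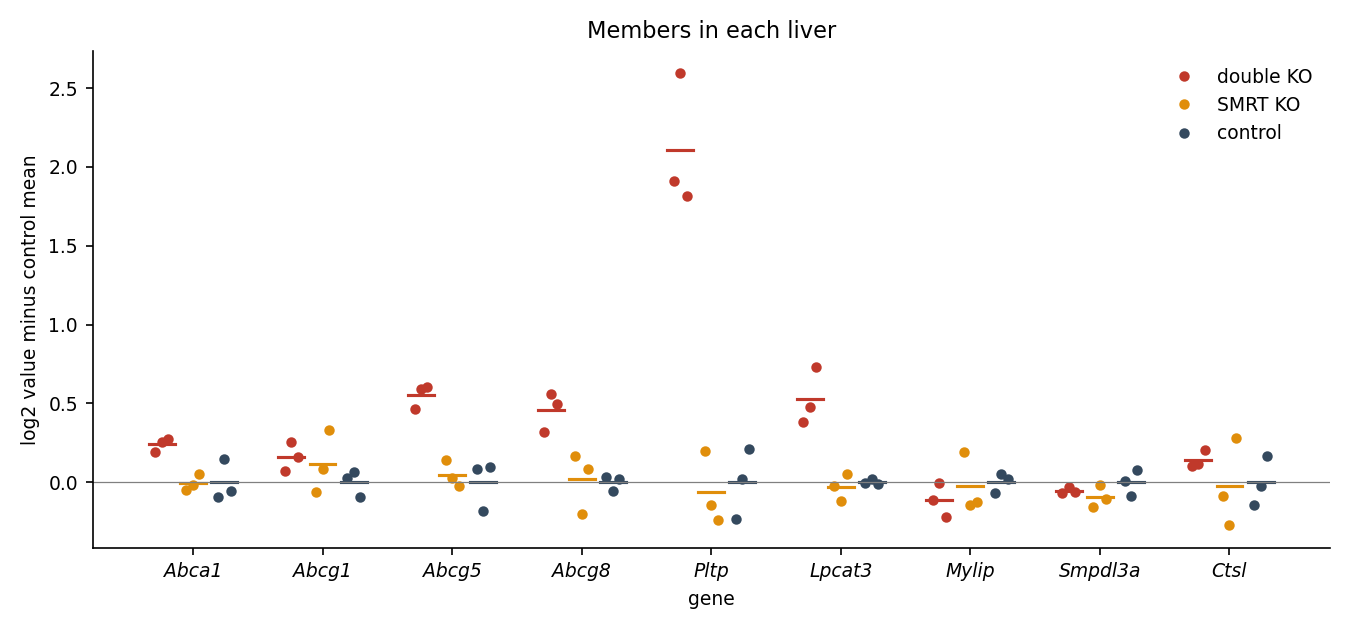
Log2 value of each of the 9 genes in each liver, minus the mean of the 3 control livers (y axis), with double KO, SMRT KO and control livers side by side for each gene (x axis); points are livers and bars are group means. Pltp stands 2.11 above control in double KO livers, Abcg5, Lpcat3 and Abcg8 stand 0.46 to 0.55 above it, and the SMRT KO means of all 9 genes lie within 0.12 of control.

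Pltp encodes phospholipid transfer protein, which moves phospholipids between lipoproteins and remodels HDL. Its log2 values were 10.61, 11.29 and 10.52 in double KO livers. They were 8.90, 8.55 and 8.46 in SMRT KO livers and 8.47, 8.72 and 8.91 in control livers. The lowest double KO liver lay above all SMRT KO and control livers, while SMRT KO and control livers overlapped. On the log2 scale the fold change was 2.11 in double KO against control livers, with a standard error of 0.207, a 95% interval of 1.64 to 2.57 and an adjusted p of 0.00304. It was 2.17 in double KO against SMRT KO livers, with an interval of 1.70 to 2.64 and an adjusted p of 0.0021. Among all genes the rise over control ranked 9 by size. Double KO replicate 2 was the highest of its group, and without it the log2 fold change over control was 1.86 (adjusted p = 0.00411). In both comparisons Pltp passed whichever of the 9 mice was left out.

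Lpcat3 encodes the acyltransferase that places polyunsaturated chains into phosphatidylcholine. Its log2 values were 11.55, 11.65 and 11.90 in double KO livers. They were 11.14, 11.05 and 11.22 in SMRT KO livers, and 11.16, 11.19 and 11.16 in control livers, which lay within 0.033 of each other. The double KO livers lay above the other 6 livers with no overlap. Lpcat3 had a log2 fold change of 0.53 against control livers (standard error 0.0925, 95% interval 0.32 to 0.74, adjusted p = 0.0367) and 0.56 against SMRT KO livers (95% interval 0.35 to 0.77, adjusted p = 0.0237). The call against control livers held in 1 of 9 fits that left out 1 mouse, the one without double KO replicate 1, and the adjusted p over these fits was 0.0446 to 0.136. The call against SMRT KO livers was lost without double KO replicate 2 or SMRT KO replicate 1 or 2 (adjusted p = 0.0826, 0.0821 and 0.0755). With only the 2 groups compared in the fit, both calls were lost (adjusted p = 0.098 against control and 0.0936 against SMRT KO livers).

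Abcg5 and Abcg8 encode the half-transporters that pair to send cholesterol and plant sterols from the hepatocyte into bile. Abcg5 had log2 values of 11.23, 11.36 and 11.38 in double KO livers, 10.91, 10.80 and 10.75 in SMRT KO livers and 10.86, 10.59 and 10.87 in control livers. The double KO livers lay above the other 6, and SMRT KO and control livers overlapped. Its log2 fold change was 0.55 against control livers (standard error 0.0903, 95% interval 0.35 to 0.76, adjusted p = 0.0263). It was 0.50 against SMRT KO livers (95% interval 0.30 to 0.71, adjusted p = 0.0343). The call against control livers was lost without control replicate 1 or 3 or any 1 of the 3 double KO mice (adjusted p = 0.0601, 0.0616, 0.0636, 0.127 and 0.0996). It was also lost with only the 2 groups compared in the fit (0.0787). The call against SMRT KO livers held without control replicate 1 or 2 and was lost in the other 7 such fits (adjusted p up to 0.141).

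Abcg8 had log2 values of 10.67, 10.91 and 10.85 in double KO livers, 10.52, 10.15 and 10.44 in SMRT KO livers and 10.39, 10.30 and 10.38 in control livers. As for Abcg5, the double KO livers lay above the other 6. Its log2 fold change was 0.46 against control livers (95% interval 0.23 to 0.69, adjusted p = 0.099) and 0.44 against SMRT KO livers (95% interval 0.21 to 0.67, adjusted p = 0.0999), and neither passed. Without SMRT KO replicate 2 it passed against control livers (adjusted p = 0.0476). That the threshold fell between the partners does not show that they differed. The log2 fold change of Abcg5 minus that of Abcg8 was 0.095 against control livers, with p = 0.3 in an exact two-sided permutation test of the within-liver differences. Against SMRT KO livers it was 0.065 (exact p = 0.6). With 3 mice against 3 the smallest p this test can give is 0.1.

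Abca1 and Abcg1 export cholesterol to HDL particles, Abca1 to lipid-poor apolipoprotein A-I and Abcg1 to mature HDL. Abca1 had log2 values of 10.86, 10.93 and 10.94 in double KO livers, 10.62, 10.65 and 10.72 in SMRT KO livers and 10.57, 10.82 and 10.62 in control livers. The double KO livers lay above the other 6, the nearest being control replicate 2. The log2 fold change was 0.24 against control livers (standard error 0.076, 95% interval 0.071 to 0.41, adjusted p = 0.252) and 0.24 against SMRT KO livers (adjusted p = 0.237), and neither passed.

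Abcg1 had log2 values of 7.62, 7.80 and 7.71 in double KO livers, 7.48, 7.63 and 7.88 in SMRT KO livers and 7.57, 7.62 and 7.45 in control livers. The highest of the 9 livers was SMRT KO replicate 3. The double KO livers lay just above the controls, 7.618 at the lowest against 7.617 at the highest control, and overlapped the SMRT KO livers. Abcg1 had a log2 fold change of 0.16 against control livers (95% interval -0.07 to 0.39, adjusted p = 0.653) and 0.044 against SMRT KO livers (adjusted p = 0.941).

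Mylip, Smpdl3a and Ctsl had no call in any comparison. Mylip encodes the ubiquitin ligase that marks the LDL receptor for breakdown. Its log2 values were 8.70 to 8.91 in double KO livers, 8.77 to 9.11 in SMRT KO livers and 8.85 to 8.96 in control livers. Its log2 fold change in double KO against control livers was -0.11 (95% interval -0.34 to 0.12, adjusted p = 0.783). That interval lies below the intervals of Pltp, Lpcat3 and Abcg5 in the same comparison.

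Smpdl3a encodes a secreted phosphodiesterase related to acid sphingomyelinase, known as an LXR target in human cells. Its log2 values were 9.72 to 9.76 in double KO livers, 9.63 to 9.78 in SMRT KO livers and 9.71 to 9.87 in control livers. The log2 fold change was -0.053 against control livers (95% interval -0.20 to 0.098, adjusted p = 0.851). Its other probe set was dimmer, with means of 6.55 in double KO, 6.44 in SMRT KO and 6.47 in control livers, and gave a difference of 0.076 from control. The sign of this small difference therefore depended on the probe set.

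Ctsl encodes cathepsin L, a lysosomal cysteine protease. Its log2 values were 12.17 to 12.27 in double KO livers, 11.79 to 12.34 in SMRT KO livers and 11.92 to 12.23 in control livers, so all 3 groups overlapped. The log2 fold change was 0.14 against control livers (95% interval -0.16 to 0.44, adjusted p = 0.793). A change of the size found for Abca1 lies within this interval.

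The double KO livers lay above the control livers with no overlap for 6 members (Pltp, Lpcat3, Abcg5, Abcg8, Abca1 and Abcg1), where this held for 7.73% of all genes, and 15% did not overlap in either direction. Against SMRT KO livers it held for 5 members, all of these but Abcg1, where it held for 7.54% of all genes, and 13.8% did not overlap in either direction.

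**Figure D2:**
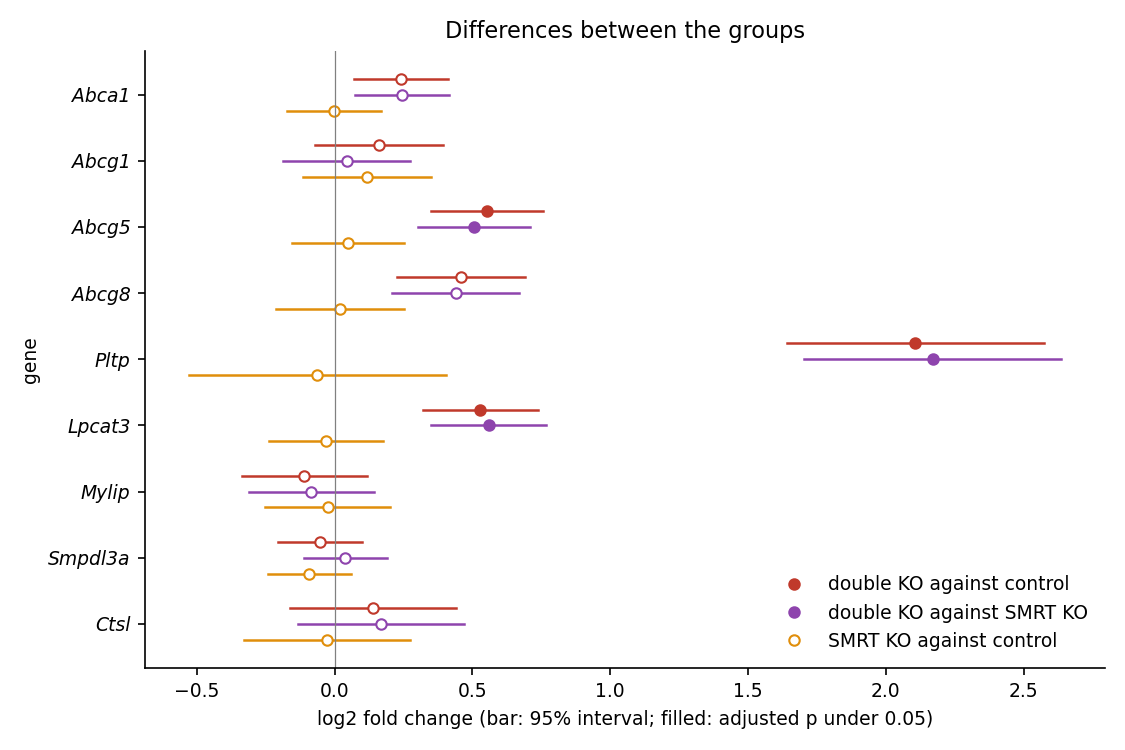
Log2 fold change (x axis) of each of the 9 genes (rows) in double KO against control, double KO against SMRT KO and SMRT KO against control livers; points are estimates, bars 95% intervals, and filled points passed an adjusted p of 0.05. Only Pltp, Lpcat3 and Abcg5 have filled points, in both double KO comparisons, and the intervals of SMRT KO against control span 0 for all 9 genes.

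None of the 9 genes was called in livers that lacked SMRT alone. In SMRT KO against control livers the log2 fold changes ran from -0.092 for Smpdl3a to 0.12 for Abcg1, with a median of -0.025, and 3 of 9 were above 0. By limma 0 of 9 members passed, 0 had an unadjusted p under 0.05, and the groups overlapped for all 9, where 8.16% of all genes did not overlap and 3.8% did so with SMRT KO livers higher. Of all genes 0.00451% were called and 1331 of 22180 had an unadjusted p under 0.05. Among the members with a call in double KO livers, the 95% interval was -0.15 to 0.25 for Abcg5, -0.24 to 0.18 for Lpcat3 and -0.53 to 0.40 for Pltp. Each of these lies below the interval of the same gene in double KO against control livers. For Abca1 the log2 fold change was -0.0033 (95% interval -0.17 to 0.17) and for Abcg8 it was 0.020 (-0.21 to 0.25).

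The change of double KO over SMRT KO livers was then tested, in the same model, against the change that SMRT KO livers showed over control. For Pltp the double KO change was larger by 2.23 on the log2 scale (95% interval 1.43 to 3.04), with an adjusted p of 0.0711, which did not pass. The excess was 0.59 for Lpcat3 (adjusted p = 0.333), 0.46 for Abcg5 (0.486), 0.42 for Abcg8 (0.611) and 0.25 for Abca1 (0.71). By limma 0 of 9 members passed, where 0.135% of all genes did (0.0812% with a larger and 0.0541% with a smaller double KO change), and 4 members had an unadjusted p under 0.05 against 1768 of 22180 genes. Pltp passed with the dimmest 30% of genes left out (adjusted p = 0.049).

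The receptor genes measured here were not called. Of 5 listed LXR and RXR genes 4 were measured, and Nr1h2 (LXR beta) had no value here. Of these 4 genes 0 passed in any comparison. Among all genes 0.843% were called in double KO against control livers. The share was 1.19% in double KO against SMRT KO and 0.00451% in SMRT KO against control livers. Nr1h3, named here because it encodes the main LXR of liver, had log2 fold changes of -0.11 in double KO against control (adjusted p = 0.615) and -0.15 in double KO against SMRT KO livers (0.459). Rxra, its main partner in liver, had -0.18 against control livers (adjusted p = 0.47). Rxrb had 0.24 in double KO against SMRT KO livers (adjusted p = 0.301) and -0.19 in SMRT KO against control livers (0.829).

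Some other LXR targets rose too. Of 12 measured, 4 rose in double KO against control livers, 0 fell and 8 did not pass, where 0.523% of all genes rose. Their median log2 fold change was 0.26, and 11 of 12 were above 0. Srebf1 had 0.62 against control livers and did not pass (adjusted p = 0.23). Cyp7a1 (0.30), Lbp (0.21), Npc2 (0.17), Apoe (0.10), Apoc2 (0.098), Apoc1 (0.033) and Npc1 (-0.13) did not pass either. Mlxipl, which encodes the glucose-sensing factor ChREBP, had log2 values of 11.72, 11.62 and 11.59 in double KO livers, 11.25, 10.96 and 11.00 in SMRT KO livers and 10.99, 10.83 and 11.06 in control livers. Its log2 fold change was 0.68 against control livers (adjusted p = 0.0129) and 0.57 against SMRT KO livers (0.0227). The first call was lost without double KO replicate 1 or 2 (adjusted p = 0.0591 and 0.067), and the second without any 1 of the double KO mice or SMRT KO replicate 2 or 3 (up to 0.0928). Its call against SMRT KO livers was also lost with only the 2 groups compared in the fit (0.0625). The other 3 that rose were Lpl, which frees fatty acids from lipoproteins (log2 fold change 1.80, adjusted p = 0.0108), Fasn, the fatty acid synthase (1.05, 0.0184), and Scd1, the stearoyl-CoA desaturase (0.71, 0.0195). All 4 also rose against SMRT KO livers, by 1.62, 1.08, 0.64 and 0.57 for Lpl, Fasn, Scd1 and Mlxipl, where 0.748% of all genes rose. These calls also depended on the mice in the fit. Lpl lost its call against control livers without double KO replicate 2 or 3 (adjusted p = 0.067 and 0.0511), and against SMRT KO livers without double KO replicate 2 or 3 or SMRT KO replicate 1 (up to 0.0785). Its size depended on the probe set, since the mean of its probe sets gave 1.09 against control (adjusted p = 0.0137) and 0.99 against SMRT KO livers (0.0172). Fasn lost its call against control livers without any 1 of the control or double KO mice (adjusted p up to 0.0942), and against SMRT KO livers without double KO replicate 1 or 2 or SMRT KO replicate 1 (up to 0.071). Scd1 lost its call against control livers without any 1 of the control or double KO mice (adjusted p up to 0.0942), and against SMRT KO livers without any 1 of the double KO mice or SMRT KO replicate 1 or 2 (up to 0.108). With only the double KO and SMRT KO mice in the fit, Lpl, Fasn and Scd1 did not pass against SMRT KO livers (adjusted p = 0.0502, 0.0504 and 0.0936). In SMRT KO against control livers 0 of the 12 passed, where 0.00451% of all genes were called. Lbp, the lipopolysaccharide-binding protein, had the smallest p there (log2 fold change 0.34, adjusted p = 0.775).

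Among relatives of the ABC transporters, Abca8a fell and the others did not pass. Abca8a, a member of the ABCA family, had log2 values of 9.09, 8.64 and 9.48 in double KO livers, 10.81, 10.63 and 10.54 in SMRT KO livers and 10.57, 10.51 and 10.50 in control livers. All double KO livers lay below the other 6. The log2 fold change was -1.45 against control livers (standard error 0.176, adjusted p = 0.00689) and -1.59 against SMRT KO livers (0.00403), and both calls stood whichever of the 9 mice was left out. Of 11 measured relatives, 0 rose and 1 fell in each double KO comparison, where 0.32% and 0.437% of all genes fell. In each of them 6 relatives were above 0 and 5 below. Abca8b, Abca9 and Abca6 had -0.36, -0.41 and -0.28 against control livers (adjusted p = 0.381, 0.265 and 0.237). Against SMRT KO livers they had -0.44, -0.46 and -0.19 (adjusted p = 0.256, 0.187 and 0.466). Abca2 had a log2 fold change of 0.40 in double KO against SMRT KO livers (adjusted p = 0.0737) and of -0.23 in SMRT KO against control livers (0.801). Cross-hybridisation between Abca8a and its close relatives was not tested.

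In the 4 remaining lists 0 genes passed in any comparison. Calls were rare among all genes too: 0.843% (double KO, control), 1.19% (double KO, SMRT KO) and 0.00451% (SMRT KO, control). With calls this rare, a count of 0 in a short list does not show that its genes were unchanged. Of 9 genes of phospholipid acyl chain remodelling, the process in which Lpcat3 acts, 0 passed. Lpcat1, Lpcat2 and Lpcat4 had log2 fold changes of 0.019, 0.14 and 0.022 in double KO against control livers. Mboat1, Mboat2 and Mboat7 had -0.056, 0.049 and -0.10 there. Lpgat1, an acyltransferase, had the smallest p of the list there (0.42, adjusted p = 0.25). Of 9 genes of HDL and lipoprotein receptors, Apom, an HDL apolipoprotein, had the smallest p against control livers (log2 fold change -0.25, adjusted p = 0.22). Scarb1, the hepatic HDL receptor, had the smallest p against SMRT KO livers (0.36, adjusted p = 0.301). Of 11 lysosomal proteins and sphingomyelinases, Ctsd, the protease cathepsin D, had 0.35 against control livers (adjusted p = 0.173). Of 6 genes that SREBP2 drives when sterols are low, 5 were above 0 against control livers and 6 against SMRT KO livers, with medians of 0.11 and 0.24. Lss, lanosterol synthase, had the smallest p of these (0.22 against control livers, adjusted p = 0.752).

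**Figure D3:**
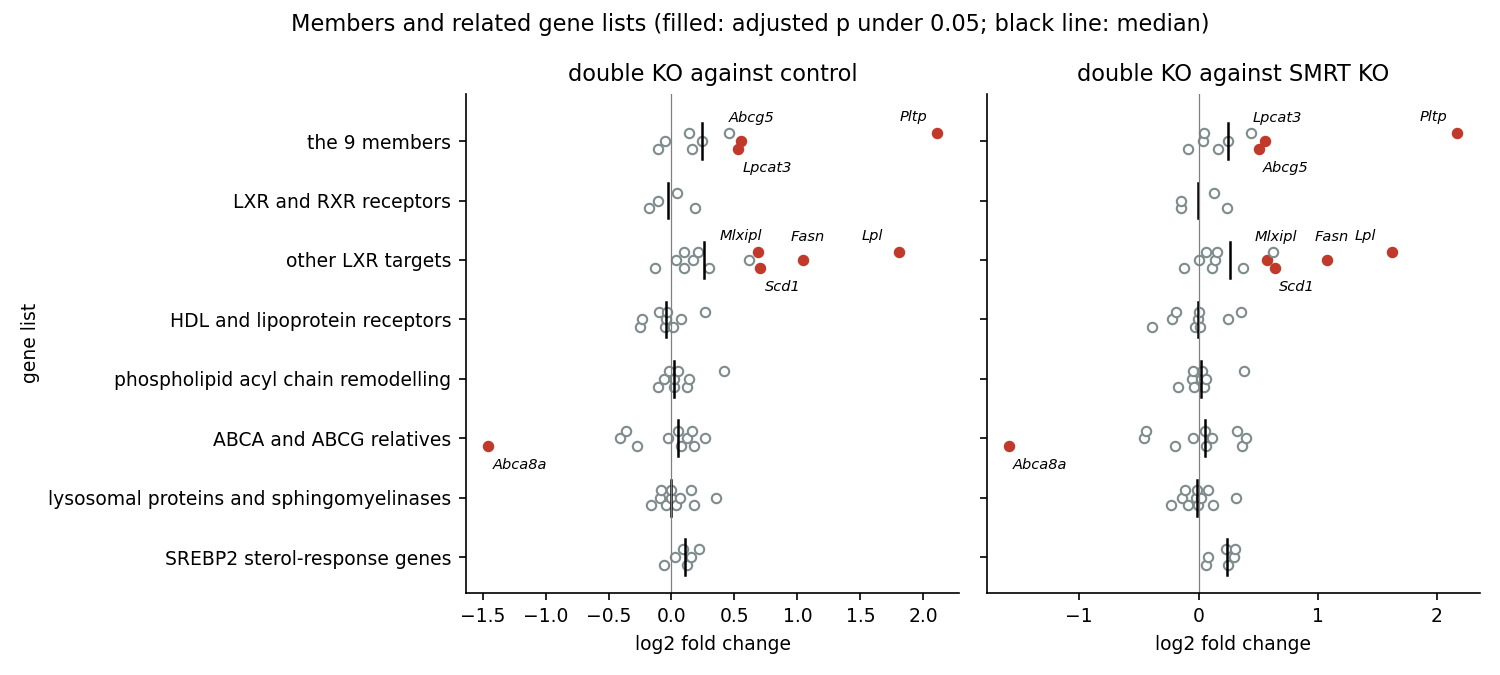
Log2 fold change (x axis) of the 9 genes and of 7 related gene lists (rows) in double KO against control (left) and double KO against SMRT KO livers (right); each point is a gene, filled where it passed an adjusted p of 0.05, and the black line is the list's median. Calls outside the 9 genes are 4 rises among other LXR targets and the fall of Abca8a, while the remaining 5 lists have 0 filled points.

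Several members are also made by macrophages, so macrophage markers are given beside them. Their summed linear signal over 12 markers was 4875 to 5856 in double KO, 5917 to 6901 in SMRT KO and 5158 to 5876 in control livers. In double KO against control livers 5 of 12 markers were above 0 (median -0.023, 0 passed). In SMRT KO against control livers 12 of 12 were above 0 (median 0.23, 0 passed), and in double KO against SMRT KO livers 0 of 12 were above 0 (median -0.25, 0 passed). The part of these shifts in the members' values was not tested. In whole liver, fewer cells of a type and less RNA per cell cannot be told apart.

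The genes closest to each called member were sought by the root mean square difference of gene-centred log2 values over the 9 arrays. They were picked on these same values. A rise or a high liver that a neighbour shares with its member therefore follows from the choice and is not separate evidence. For Pltp they were Ighm, the heavy chain of IgM (0.243), Cyp3a59, a cytochrome P450 (0.318), and Gask1a (0.334), where the median over all genes was 1.04. Ighm had log2 values of 9.82, 10.85 and 9.86 in double KO livers, 8.08, 7.86 and 8.38 in SMRT KO livers and 8.14, 8.42 and 8.61 in control livers. It was highest in double KO replicate 2, as Pltp was, and rose by 1.79 on the log2 scale over control livers (adjusted p = 0.0182). Of 6 lymphocyte markers only 3 had a mean above the receptor guide. In either double KO comparison 0 of the 6 passed, with a median of 0.020 in double KO against control and -0.070 in double KO against SMRT KO livers. Their summed linear signal was 331 to 380 in double KO, 356 to 413 in SMRT KO and 332 to 357 in control livers. The lymphocyte list mixes T-cell and B-cell markers, and of the latter Cd79a and Ms4a1 had -0.11 and 0.025 against control livers. Vpreb3, a gene of the B-cell lineage outside the list, rose by 0.98 over control livers (adjusted p = 0.0439). The cells that gave the Ighm signal were not tested.

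For Abcg5 the closest genes were Dlat, a subunit of pyruvate dehydrogenase (0.0842), Cpeb1 (0.0859) and Snrk (0.0877), where the median was 0.288. Dlat rose by 0.41 over control livers (adjusted p = 0.0262), while Cpeb1 and Snrk did not pass (0.2 and 0.0942). For Lpcat3 they were Samm50, of the mitochondrial outer membrane (0.0786), Rab9, an endosomal GTPase (0.0817), and Lrrc8d, a volume-regulated channel subunit (0.0875), where the median was 0.296. Samm50 rose by 0.56 and Rab9 by 0.56 over control livers (adjusted p = 0.0195 and 0.0182), and Lrrc8d had 0.38 (0.101). None of these 9 neighbours was another member of the set.

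The count of called members depended on the mice in the fit. Against control livers it was 1 without control replicate 1 or 3 or double KO replicate 2 or 3, against 3 with all mice, and the remaining gene was Pltp each time. Against SMRT KO livers it was 1 without double KO replicate 2 or SMRT KO replicate 1 or 2, again Pltp. Without SMRT KO replicate 2, 3 members were called against control livers, Abcg8 in place of Lpcat3.

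**Figure D4:**
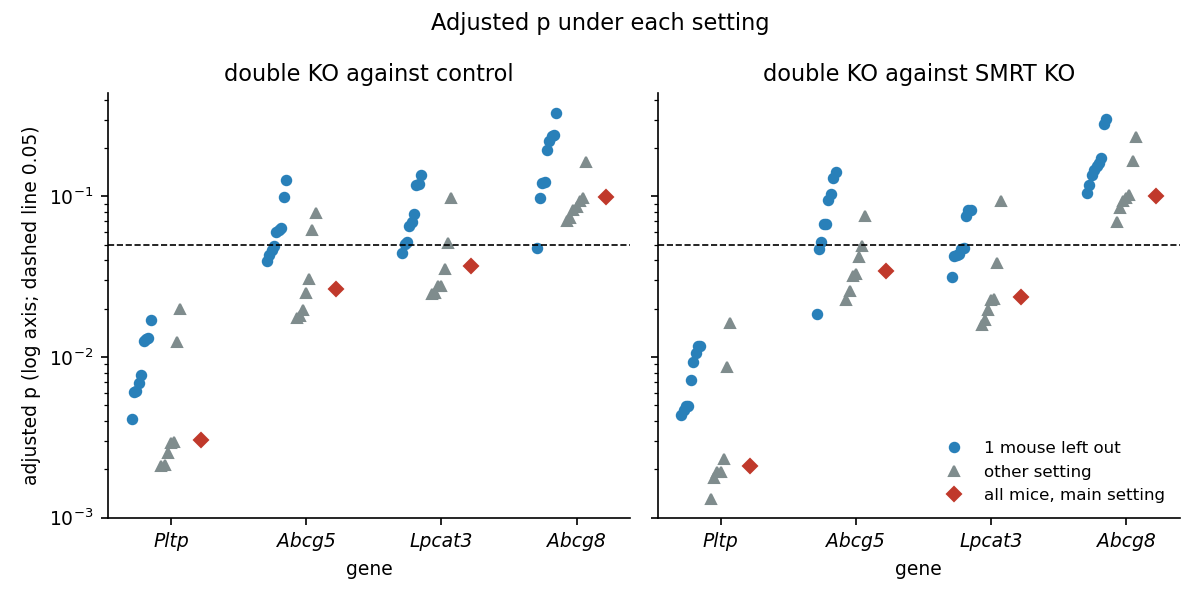
Adjusted p (y axis, log axis, dashed line at 0.05) of Pltp, Abcg5, Lpcat3 and Abcg8 in double KO against control (left) and against SMRT KO livers (right); circles leave out 1 mouse, triangles change another setting and diamonds are the values given in the text. All points of Pltp lie under 0.05, those of Abcg5 and Lpcat3 lie on both sides, and those of Abcg8 lie above it but for 1 against control livers.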

How the data were processed

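Liver RNA of 9 mice (200 ng each) was measured on Affymetrix whole-transcript arrays. The deposited log2 values were made by the authors with RMA, per the submitters' processing notes, which corrects background, quantile-normalizes the arrays together and summarises probe sets. No version of it is stated there. A shift shared by most genes would not show, and precision is limited by the number of arrays. Groups came from sample titles, and 0 columns were left unmatched. Of 41345 probe sets, 23521 had exactly 1 symbol in the platform annotation and 1814 several. The probe set with the highest mean stood for each of 22180 genes, with no filter.

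All 9 arrays entered 1 linear model per gene, fitted by limma 3.58.1 (R 4.3.3; functions lmFit, contrasts.fit and eBayes; two-sided), with 6 residual and 3.36 prior degrees of freedom. P-values were adjusted by Benjamini-Hochberg over all genes in each contrast. The steps were also run on simulated data with independent noise for each gene, as a check of the code and not of the calls reported here. Intervals are 95% intervals from the model. Each p-value sets a difference between groups against the spread between mice within groups, moderated over all genes. With 3 mice against 3, an exact permutation test cannot go below p = 0.1. Named genes were all members, list genes called or with the smallest p in a comparison, and the 3 genes closest to each called member. Some other list genes are named to describe their list. Vpreb3, which is in no list, was named after the calls were seen. The members and lists were chosen with earlier results of these data known. Alternatives changed the samples in the fit, replicate block, normalization, probe set rule, filter, array weights and variance prior, or left out 1 mouse. Sequences are from RefSeq tables of GRCm38.p6. The coordinates of the probes are not used here.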

Additional observations from a re-analysis of the deposited data

How the results depend on the processing

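Over the 16 alternatives of each comparison of 2 groups, Pltp kept its direction and its calls in both double KO comparisons, with log2 fold changes of 1.86 to 2.25 against control (adjusted p 0.0021 to 0.0198) and 1.93 to 2.32 against SMRT KO livers (0.00132 to 0.0163). Abcg5 and Lpcat3 kept their direction and lost calls, Abcg5 in 7 and 8 of 16 and Lpcat3 in 10 and 4 of 16. The Lpcat3 call against control was lost without any 1 of the SMRT KO mice although its difference of 0.53 was the same. Fits with fewer mice have fewer degrees of freedom and another estimate of the spread. The part of each in the lost calls was not tested.

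Called members numbered 1 in double KO against control with only the 2 groups in the fit, and 1 with the replicate block. Leaving out 1 mouse gave 1 to 3 against control and 1 to 3 against SMRT KO livers. For the excess of the double KO step over the SMRT step 1 member, Pltp, was called with the dimmest 30% of genes left out. The replicate numbers showed no sign of pairing the mice. Of 9 pairs 1 had a correlation of deviations over 0.1 (-0.0845 to 0.117). Of 9 arrays 1 correlated best with its own number in both other groups. With the replicate block, double KO against SMRT KO livers had 2 called members, Lpcat3 and Pltp, and 152 and 195 genes were called in all in double KO against control and against SMRT KO livers.

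All genes called numbered 109 with the 2 groups alone and 285 with array weights in double KO against control livers, against 187, and 61 to 179 with 1 mouse left out. In double KO against SMRT KO livers they numbered 124 with the 2 groups alone, against 263, and 101 to 234 with 1 mouse left out. In SMRT KO against control livers they numbered 0 with the 2 groups alone and 2 with the replicate block, against 1, and 0 to 23 with 1 mouse left out. For the excess they numbered 8 with the replicate block and 12 with array weights, against 30, and 0 to 16 with 1 mouse left out. The lowest counts came without double KO replicate 2 in both double KO comparisons, and the cause was not tested.

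Signs changed only for differences that had no call. In SMRT KO against control livers, leaving out 1 mouse gave -0.051 to 0.071 for Abca1 (0.0094 after cyclic loess), -0.041 to 0.096 for Abcg5, -0.056 to 0.13 for Abcg8, -0.18 to 0.097 for Ctsl, -0.073 to 0.014 for Lpcat3, -0.14 to 0.034 for Mylip and -0.19 to 0.042 for Pltp. In double KO against SMRT KO livers it gave -0.047 to 0.15 for Abcg1 and -0.14 to 0.025 for Mylip. For the excess it gave -0.25 to 0.14 for Abcg1, -0.053 to 0.50 for Ctsl and -0.18 to 0.16 for Mylip. With the mean of its probe sets Smpdl3a had 0.012 in double KO against control livers. The cause of these changes was not tested.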
